A study of Homo sapiens with 6 samples.

Results

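Glycolysis and hypoxia response genes were described in HaCaT cells, a spontaneously immortalized human keratinocyte (KC) line, after transfection with 1 nM of a miR-21-3p mimic or of a negative control (NC) mimic. The 40 genes were listed by name and looked up by the gene name column of the deposited table, and 36 of them had a row among its 22152 rows. ALDOC, CA12, EGLN3 and HILPDA were not analysed here. All 36 genes passed the filter on low values, together with 14795 genes in all. The 40 genes comprise 17 glycolytic enzymes, 3 regulators of glycolytic flux, 3 subunits of the hypoxia-inducible factor (HIF), 2 HIF prolyl hydroxylases and 15 other HIF targets.

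Total RNA was taken 48 h after transfection from 3 biological replicates of each group. Per the labels, polyA RNA was sequenced from libraries of a stranded mRNA kit, while the methods of the study describe small RNA libraries. Both groups are the same line, neither was labelled as grown in low oxygen, and untransfected cells were not analysed here. The deposited values are read counts divided by a size factor for each library, called normalized counts here. The reads recovered from them came to between about 24400000 and 28000000 per library. The question was which of these genes differed in level between KCs given the miR-21-3p mimic and KCs given the NC mimic.

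Glycolysis turns glucose into pyruvate in the cytosol, and lactate dehydrogenase turns pyruvate into lactate. HIF is a pair of proteins, an alpha subunit (HIF1A or EPAS1) and the beta subunit ARNT. In normal oxygen, prolyl hydroxylases mark the alpha subunit, and the VHL ubiquitin ligase sends it for degradation. In low oxygen, HIF binds DNA and raises transcription of many glycolytic enzyme genes and of genes for pH control, blood vessel growth and mitochondrial removal. HIF activity is therefore set largely on protein, which RNA levels do not measure.

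The label of the cells was checked on marker genes. Of 20 keratinocyte markers 19 had a row, led by KRT5, the basal cell keratin, at a mean of 130667 normalized counts in NC. The summed level of the 19 was 430783, 413010 and 431836 in the NC libraries and 435141, 446745 and 415472 in the miR-21-3p mimic libraries. KRT6A, KRT8 and KRT18 were called higher and LAMA3 and ITGB4 lower. Only KRT6A of these 5 was called in all 6 fits that left out 1 library. KRT18 was lost without NC 3 or mimic 1 (adjusted p up to 0.057). KRT8, LAMA3 and ITGB4 were lost without NC 1, NC 3, mimic 1 or mimic 3, with adjusted p up to 0.11, 0.091 and 0.15. With all libraries, 6.11% of all genes tested were called higher and 4.66% lower. Without NC 2, 4 of the 19 were called higher and 3 lower, against 11% and 8.99% of all genes tested. Of markers of other cell types, 1 of 8 for fibroblasts (COL1A1, lower without NC 2 and by DESeq2), 2 of 7 for melanocytes (PMEL, MITF), 2 of 5 for endothelium (CDH5, VWF) and 1 of 6 for immune cells (CD14) had a row. Their summed levels were at most 560, 640, 1197 and 92.2 normalized counts in any library. CDH5, an endothelial cadherin, was the one of these that was called, and it was lower, at 477, 286 and 393 in NC and 165, 178 and 122 in mimic cells. Its part in the results was not tested. In bulk samples, fewer cells of a type and less RNA per cell cannot be told apart.

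The NC libraries were not alike. On the first principal component of all 14795 genes, which held 46.7% of the variance, the NC libraries stood at 21.2, 1.95 and 13.3 and the miR-21-3p mimic libraries at -11.8, -6.86 and -17.9. NC replicate 2 thus stood nearest to the mimic libraries. Among the 16 glycolytic enzymes it was the highest of the NC libraries for 13, against 36.1% of all genes tested, and among the 13 other HIF targets it was the lowest for 9, against 34.3%. Counts of calls are therefore also given without it. Leaving out the NC library nearest to the mimic libraries widens the difference between the groups by construction, so a call gained without NC 2 adds no support for a difference. Mimic 2, at -6.86, was the mimic library nearest to the NC libraries, and a call gained without it adds none either.

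Across all genes, limma called 1593 of 14795 (10.8%) at an adjusted p under 0.05, of which 904 (6.11%) were higher and 689 (4.66%) lower in mimic cells. Of the 36 genes, 9 were called higher and 3 lower. The groups did not overlap for 12 genes in the upward direction and 4 in the downward direction, against 16.5% and 14.8% of all genes tested. By limma, glycolytic enzymes held 7 of the 9 upward calls, and by DESeq2 8 of 9, with PKM added and HIF1A lost from the subunits. They held 0 downward calls by limma, edgeR and DESeq2, with 0 lower at an unadjusted p under 0.05. By limma the HIF subunits held 1 upward and 2 downward calls, the flux regulators 1 downward call, and the other HIF targets 1 upward call. Without NC replicate 2, limma called 2957 genes (20%; 11% higher and 8.99% lower) and, of the 36 genes, 12 higher and 5 lower. By role these were 10 enzymes higher and 0 lower, 1 HIF subunit higher and 2 lower, 1 flux regulator lower, and 1 other HIF target higher and 2 lower. They held the 12 called with all libraries, to which GAPDH, PGAM1, PKM, NDRG1 and P4HA1 were added. On recovered reads, edgeR called 1639 of 14792 genes (11.1%) and the same 12 of the 36. Without any one of the other libraries limma called fewer genes than with all 6. These were 542 genes and 6 of the 36 without NC 1, 176 and 1 without NC 3, 277 and 2 without mimic 1, 1541 and 12 without mimic 2, and 365 and 3 without mimic 3.

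**Figure D1:**
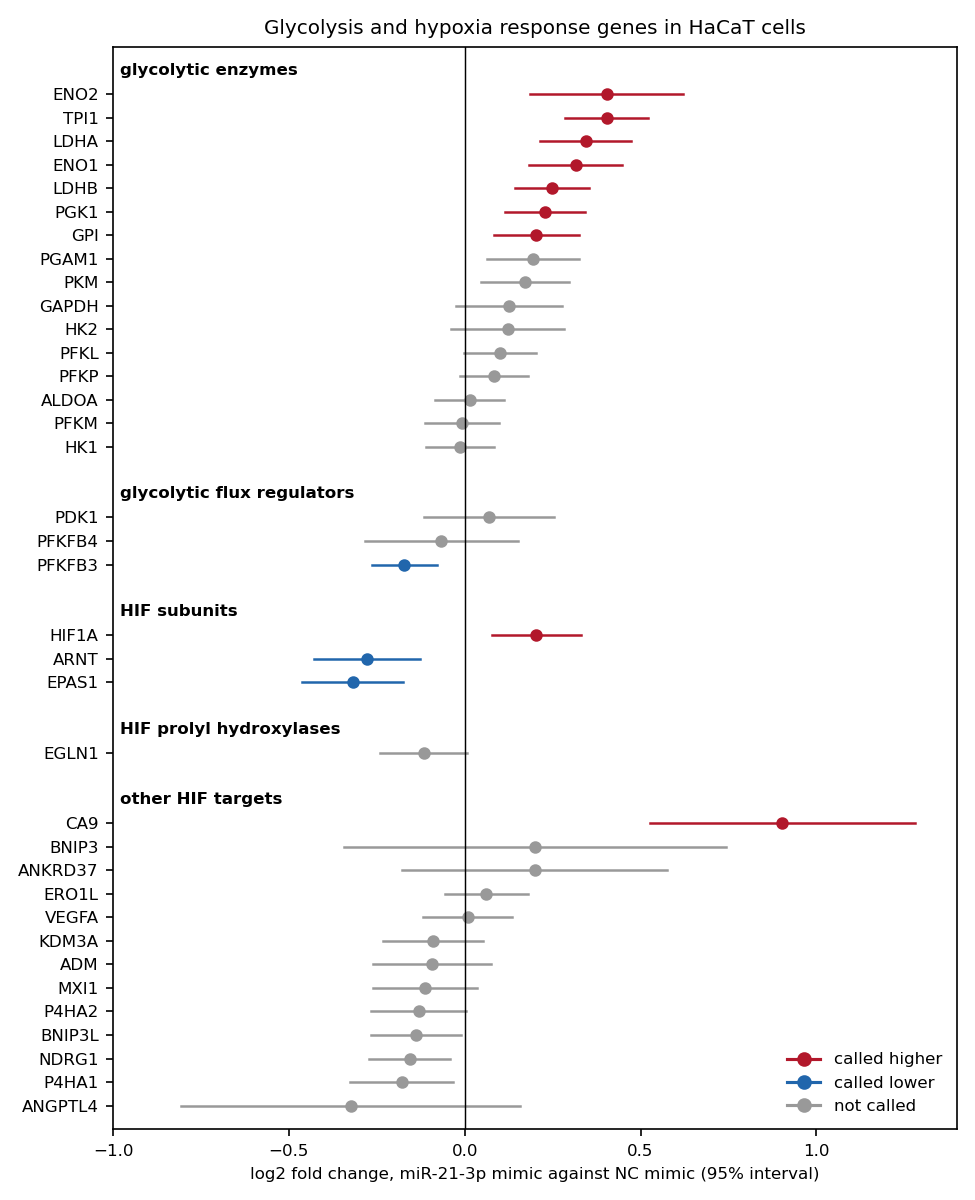
Log2 fold change of each of the 36 genes, miR-21-3p mimic against NC mimic, with its 95% interval from limma, grouped by role. Red points were called higher, blue points lower and grey points were not called; 7 of 16 glycolytic enzymes are red, and CA9 is the one red point among 13 other HIF targets.

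Among glycolytic enzymes 7 of 16 were called higher, against 6.11% of all genes tested. The median log2 fold change over the 16 was 0.18, against 0.0044 over all genes tested. From hexokinase to aldolase, 1 of 7 enzymes analysed was called, against 10.8% of all genes tested, too few genes to be set apart from that share. Hexokinase, which traps glucose in the cell, was not called for HK1 (log2 fold change -0.014) or HK2 (0.12, and 0.037 without mimic 2). GPI, which turns glucose 6-phosphate into fructose 6-phosphate, rose from 1490, 1660 and 1540 normalized counts in NC to 1870, 1720 and 1810 in mimic cells (log2 fold change 0.20, limma adjusted p = 0.038). Each mimic library stood above each NC library. The GPI call was lost without any one of NC 1, NC 3, mimic 1 or mimic 3, with adjusted p up to 0.16. The phosphofructokinases PFKL (0.10), PFKP (0.084) and PFKM (-0.0072) and the aldolase ALDOA (0.013) were not called.

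TPI1 (ENSG00000111669), which interconverts the products of aldolase, had 3450, 3870 and 3410 normalized counts in NC and 4680, 4600 and 4900 in mimic cells. All 3 mimic libraries stood above all 3 NC libraries, with means of 4727 ± 155 and 3577 ± 255 (SD, n = 3). The rise was 1.32-fold (95% interval 1.22 to 1.44; limma adjusted p = 0.0026). TPI1 alone among the 36 genes was called in all 6 fits that left out 1 library, with adjusted p from 5.88e-05 to 0.027. The processed pseudogene TPI1P1 had its own row at 2160 to 2820, so reads of TPI1 may be split between them. With pseudogenes named after TPI1 added to it, the log2 fold change went from 0.40 to 0.29 (adjusted p = 0.015).

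GAPDH, the next enzyme and a common reference gene in expression assays, had 26100, 31700 and 26600 in NC and 31100, 29300 and 31400 in mimic cells. NC replicate 2 was the highest of the 6 libraries, and the groups overlapped. GAPDH was not called with all libraries (log2 fold change 0.13, adjusted p = 0.25), and it was called without NC replicate 2 (0.22, adjusted p = 0.012). The log2 fold change of GAPDH was 0.075 without NC 1 (adjusted p = 0.59) and 0.089 without NC 3 (adjusted p = 0.56). Rows of 9 GAPDH pseudogenes stand beside it, and with them added it was still not called (adjusted p = 0.13). PGK1 (ENSG00000102144), the first ATP-forming step, rose 1.17-fold from 6240, 7090 and 6630 to 7540, 7690 and 8130 (limma adjusted p = 0.021). Its call was lost without NC 1, NC 3, mimic 1 or mimic 3, with adjusted p up to 0.090. PGAM1, the mutase that follows, had all mimic libraries (1060, 1140 and 1090) above all NC libraries (898, 1010 and 969) but was not called (adjusted p = 0.058; without NC 2, 0.020).

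ENO1 (ENSG00000074800), the main enolase in most cells, stood at 13600, 15100 and 13400 normalized counts in NC and 17600, 16200 and 18600 in mimic cells. The groups did not overlap, with means of 14033 ± 929 and 17467 ± 1206 (SD, n = 3). The rise was 1.24-fold (95% interval 1.14 to 1.36; limma adjusted p = 0.011). ENO2, the enolase best known from neurons, rose 1.32-fold from 208, 192 and 170 to 240, 254 and 259 (limma adjusted p = 0.026). Per kilobase of exon, ENO2 stood at 44.4 and ENO1 at 2660 in NC, so ENO2 gave 1.64% of the summed ENO1 and ENO2 level. PKM, the pyruvate kinase, had 34600, 36600 and 33600 in NC and 39700, 36800 and 41500 in mimic cells. Its groups did not overlap, and limma did not call it (log2 fold change 0.17, adjusted p = 0.076). Of these calls, ENO1 was lost without NC 3 or mimic 1, with adjusted p up to 0.069. ENO2 was lost without NC 3 or any 1 mimic library, with adjusted p up to 0.12. PKM was called without NC 2 or mimic 2, with adjusted p of 0.028 and 0.035, and by DESeq2 (0.034).

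LDHA (ENSG00000134333) makes the lactate dehydrogenase subunit that favours lactate, and LDHB the subunit of oxidative tissues. LDHA stood at 9700, 10900 and 10100 normalized counts in NC and 12900, 12100 and 14000 in mimic cells. Every mimic library was above every NC library, with means of 13000 ± 954 and 10233 ± 611 (SD, n = 3). The rise was 1.27-fold (95% interval 1.16 to 1.39; limma adjusted p = 0.0078). LDHB rose 1.19-fold from 2430, 2590 and 2450 to 3000, 2830 and 3040 (limma adjusted p = 0.011). Both genes thus rose, and the ratio of LDHA to LDHB within a library was 3.99, 4.21 and 4.12 in NC and 4.30, 4.28 and 4.61 in mimic cells. The LDHA call was lost without NC 3 (adjusted p = 0.052), and LDHB was lost without NC 3, mimic 1 or mimic 3, with adjusted p up to 0.069.

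**Figure D2:**
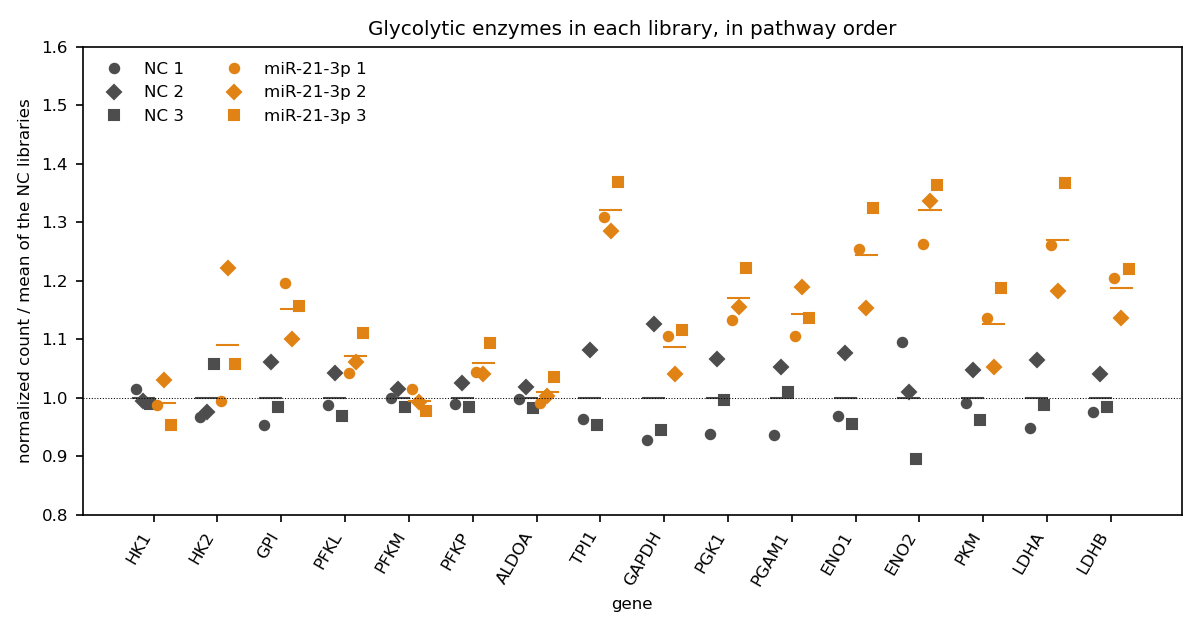
Normalized count of 16 glycolytic enzymes in each of the 6 libraries, divided by the mean of the NC libraries, in pathway order; grey symbols are NC, orange symbols miR-21-3p mimic, and short lines group means. TPI1, LDHA and ENO1 have all orange symbols above all grey ones, and NC replicate 2 (grey diamond) lies above the other NC libraries for 13 of 16 genes.

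Levels were compared between genes per kilobase of exon. GAPDH stood highest at 9438 normalized counts per kilobase in NC, followed by ALDOA at 6316 and PKM at 4076. Hexokinase reads came mainly from HK1, with 79.4% of the summed HK1 and HK2 level in NC and 77.8% in mimic cells. PFKP gave 47.0% and PFKL 37.4% of the summed PFKL, PFKM and PFKP level in NC. LDHA gave 66.4% of the summed LDHA and LDHB level in NC and 67.9% in mimic cells.

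Of the 3 regulators of flux, 1 was called, against 10.8% of all genes tested, again too few genes to be set apart from that share. PFKFB3, which makes the activator of phosphofructokinase, fell from 5020, 4930 and 5000 normalized counts in NC to 4550, 4430 and 4290 in mimic cells. All mimic libraries stood below all NC libraries (log2 fold change -0.17, limma adjusted p = 0.025). The call was lost without NC 1, NC 3, mimic 1 or mimic 3, with adjusted p up to 0.11. PFKFB4, a related enzyme, and PDK1, which blocks entry of pyruvate into mitochondria, were not called, at log2 fold changes of -0.066 and 0.068.

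Of the HIF subunits, HIF1A was called higher and EPAS1 and ARNT lower. HIF1A (ENSG00000100644) had 819, 892 and 819 normalized counts in NC and 993, 970 and 949 in mimic cells. Its mimic libraries stood above its NC libraries, at means of 971 ± 22.0 and 843 ± 42.1 (SD, n = 3). The log2 fold change was 0.20 (95% interval 0.077 to 0.33; limma adjusted p = 0.043). This adjusted p was the highest of the 12, and the call was lost by DESeq2 (0.074) and in 5 of 6 fits that left out 1 library (all but NC 2), with adjusted p up to 0.17. EPAS1 (ENSG00000116016), the other alpha subunit, fell from 3450, 2920 and 3240 to 2540, 2760 and 2400 (log2 fold change -0.32, limma adjusted p = 0.015). ARNT, the shared beta subunit, fell from 2070, 1740 and 1970 to 1600, 1690 and 1470 (log2 fold change -0.28, limma adjusted p = 0.027). For both, every mimic library stood below every NC library, and both calls were lost without NC 1, NC 3, mimic 1 or mimic 3, with adjusted p up to 0.071 for EPAS1 and 0.12 for ARNT. The ratio of HIF1A to EPAS1 within a library, not corrected for length, was 0.237, 0.305 and 0.253 in NC and 0.391, 0.351 and 0.395 in mimic cells. Per kilobase of exon in NC, EPAS1 stood at 439, ARNT at 296 and HIF1A at 164. EGLN1, the prolyl hydroxylase analysed, had overlapping groups and was not called (log2 fold change -0.12, adjusted p = 0.20).

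The other HIF targets gave 1 call among 13, an upward one, against 6.11% of all genes tested called higher and 10.8% in either direction. CA9 (ENSG00000107159), a carbonic anhydrase of the cell surface that HIF is known to induce strongly, stood at 32.3, 39.1 and 38.1 normalized counts in NC and 73.4, 58.4 and 76.3 in mimic cells. The groups did not overlap, with means of 36.5 ± 3.67 and 69.4 ± 9.61 (SD, n = 3). The rise was 1.87-fold (95% interval 1.44 to 2.43; limma adjusted p = 0.011). CA9 was a low gene, at 21.9 normalized counts per kilobase in NC, so that the fold change on the log2(value + 1) scale is understated. The call was lost without NC 3, mimic 1 or mimic 3, with adjusted p up to 0.059. On the opposite strand ARHGEF39 overlaps 38.5% of the exon bases of CA9 in GENCODE release 29. ARHGEF39, looked up for this overlap after the values were seen, had 551, 570 and 544 in NC and 701, 676 and 822 in mimic cells, and it too was called higher (log2 fold change 0.40, limma adjusted p = 0.011). The labels name a stranded kit, but whether the counting used strand is not given in the sources used here. If it did not, reads from the shared exon bases cannot be told apart. The same holds for ANKRD37, of whose exon bases 35.2% are shared with UFSP2 on the opposite strand, at 246 to 325 normalized counts against 38.1 to 53 for ANKRD37.

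Of the remaining 12 targets, 8 had a log2 fold change below 0 and 0 were called by limma with all libraries, edgeR or DESeq2, with 3 lower at an unadjusted p under 0.05. The median over the 13 was -0.094. VEGFA, the vessel growth factor, was at 1580, 1390 and 1440 in NC and 1520, 1420 and 1490 in mimic cells (log2 fold change 0.0081, 95% interval -0.12 to 0.13). NDRG1, a stress-response gene, had 3620, 3310 and 3750 in NC and 3220, 3280 and 3070 in mimic cells. Its groups did not overlap, its log2 fold change was -0.16 (adjusted p = 0.078), and it was called without NC 2 (adjusted p = 0.011). P4HA1, a collagen prolyl hydroxylase, had -0.18 (adjusted p = 0.10) and was also called without NC 2 (adjusted p = 0.0081). BNIP3L, P4HA2, MXI1, ADM and KDM3A lay between -0.14 and -0.091. ERO1L, ANKRD37 and BNIP3 lay between 0.061 and 0.20, the last at 25 to 50 normalized counts in any library. ANGPTL4, an inhibitor of lipoprotein lipase, had mimic libraries at 46.9, 93.2 and 52.9 against 77.1, 70.1 and 85 in NC. Its log2 fold change of -0.32 was not called (adjusted p = 0.36). Leaving out 1 library moved it from -0.62 (without mimic 2, adjusted p = 0.043) to -0.13 (without mimic 1, adjusted p = 0.77).

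**Figure D3:**
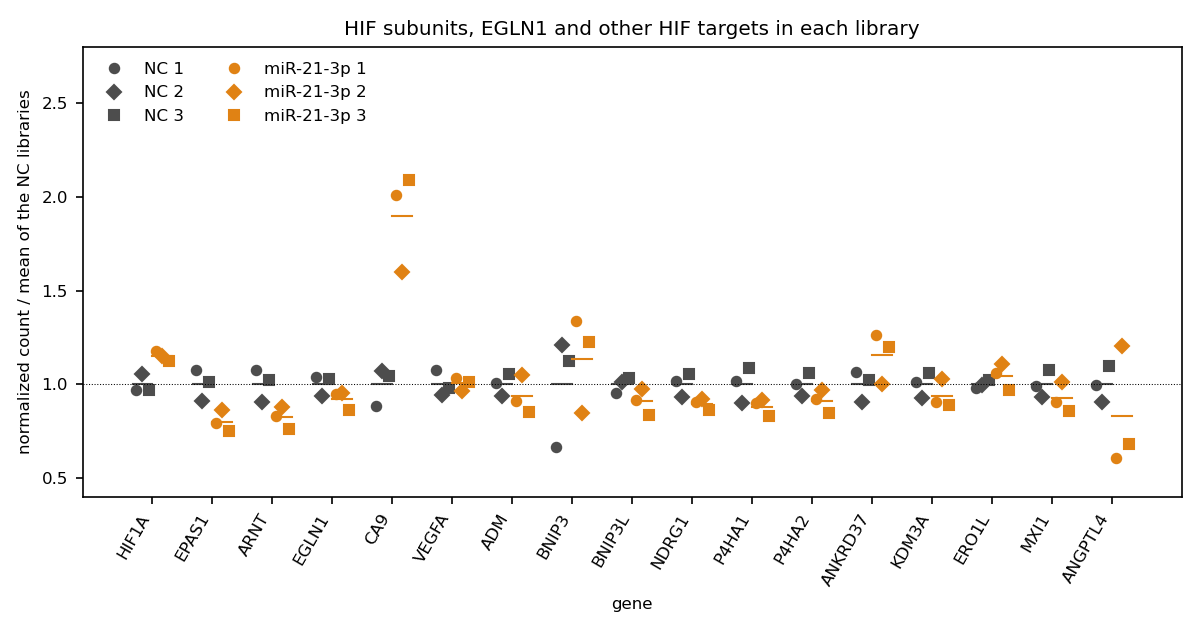
Normalized count of 3 HIF subunits, EGLN1 and 13 other HIF targets in each of the 6 libraries, divided by the mean of the NC libraries; grey symbols are NC, orange symbols miR-21-3p mimic, and short lines group means. CA9 has all orange symbols above all grey ones, while EPAS1 and ARNT have all of them below.

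Promoter windows of 5 of the 9 genes that rose are shown because HIF is known to bind the letters ACGTG or GCGTG. The 5 were chosen with the match counts known. GPI, ENO2, LDHB and HIF1A are not shown, and each had at most 1 match in a window. The windows are from RefSeq, build GRCh38.p14, and run from 250 bases before to 50 after a start site. Matches on both strands, the second strand reading CACGT or CACGC, are in capitals, and CACGTG counts on both. The windows are TPI1 at chr12:6867855-6868154 (plus strand), ENO1 at chr1:8878637-8878936 (minus strand), PGK1 at chrX:78103998-78104297 (plus strand), LDHA at chr11:18394313-18394612 (plus strand) and CA9 at chr9:35673678-35673977 (plus strand). TPI1 and LDHA each have 2 windows in RefSeq, of which the one with more matches is shown. The other TPI1 window, at chr12:6867281-6867580, had 0 matches, and the other LDHA window, at chr11:18396101-18396400, had 1.

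TPI1: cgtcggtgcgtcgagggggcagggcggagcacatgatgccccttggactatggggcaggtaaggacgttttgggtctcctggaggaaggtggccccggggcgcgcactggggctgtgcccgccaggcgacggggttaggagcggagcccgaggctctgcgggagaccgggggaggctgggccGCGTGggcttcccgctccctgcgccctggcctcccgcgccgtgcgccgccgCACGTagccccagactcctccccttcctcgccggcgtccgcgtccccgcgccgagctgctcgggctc
ENO1: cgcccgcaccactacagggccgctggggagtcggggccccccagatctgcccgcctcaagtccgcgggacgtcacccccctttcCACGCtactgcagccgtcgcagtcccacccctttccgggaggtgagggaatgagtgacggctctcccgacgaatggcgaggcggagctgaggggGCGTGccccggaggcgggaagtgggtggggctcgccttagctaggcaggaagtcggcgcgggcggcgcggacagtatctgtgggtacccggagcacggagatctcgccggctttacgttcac
PGK1: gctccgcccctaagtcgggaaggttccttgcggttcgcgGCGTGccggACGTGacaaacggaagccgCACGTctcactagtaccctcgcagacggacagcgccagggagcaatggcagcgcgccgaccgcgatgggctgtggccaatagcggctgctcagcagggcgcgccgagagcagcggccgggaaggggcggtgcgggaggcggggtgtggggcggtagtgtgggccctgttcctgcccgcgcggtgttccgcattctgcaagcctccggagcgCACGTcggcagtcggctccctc
LDHA: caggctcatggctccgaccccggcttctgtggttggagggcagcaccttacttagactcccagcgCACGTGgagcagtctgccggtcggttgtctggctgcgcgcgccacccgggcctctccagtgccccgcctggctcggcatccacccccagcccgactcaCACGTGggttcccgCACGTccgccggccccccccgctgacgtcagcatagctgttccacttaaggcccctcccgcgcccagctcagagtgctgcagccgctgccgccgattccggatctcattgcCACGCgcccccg
CA9: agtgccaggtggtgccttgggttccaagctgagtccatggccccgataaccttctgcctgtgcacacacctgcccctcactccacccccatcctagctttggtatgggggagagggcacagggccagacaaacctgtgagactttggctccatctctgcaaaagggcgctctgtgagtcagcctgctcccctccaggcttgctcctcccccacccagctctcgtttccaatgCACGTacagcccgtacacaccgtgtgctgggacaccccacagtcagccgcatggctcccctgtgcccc

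Of the windows shown, LDHA held 6 matches, PGK1 4, ENO1 and TPI1 2 each and CA9 1. Of the 40 genes 36 had windows, and 32 of these had a match in at least 1. Counted by window, 42 of 62 (67.7%) had a match, against 17012 of 35116 (48.4%) of all promoter windows, and windows of one gene can overlap. Counted by gene, 9 of 9 called higher had a match, 2 of 3 called lower and 19 of 21 not called, against 14318 of 27305 (52.4%) of all genes with a window. Both shares over all promoters take in genes whatever their level. They were not matched to the listed genes for expression or base composition, so an excess over them cannot be read as particular to the list. A gene with more windows has more chances of a match. A match is a description of the letters and not evidence of binding.

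Genes around the pathway were counted in further lists, against 6.11% of all genes tested called higher and 4.66% lower, or 11% and 8.99% without NC 2. Lists of 7 to 12 genes are too short for 1 call to be set apart from those shares. Of 12 glucose, lactate and pyruvate transport genes 1 was called higher and 0 lower by limma and edgeR, with 3 and 1 at an unadjusted p under 0.05. Without NC 2, 3 were called higher and 1 lower. SLC16A1, a lactate and pyruvate transporter, rose 1.17-fold from 4840, 4900 and 4930 to 5840, 5890 and 5380 (limma adjusted p = 0.015), a call lost without NC 3 or mimic 1 (adjusted p up to 0.082). SLC2A1, the main glucose transporter of KCs and a HIF target, had a log2 fold change of 0.085 (adjusted p = 0.20). SLC16A3, a lactate exporter and HIF target, had -0.18 (adjusted p = 0.10) and was called without NC 2 (adjusted p = 0.015). Of 11 other isoenzymes and regulators 1 was higher and 2 were lower, and without NC 2 both counts were 2. G6PC3, a glucose 6-phosphatase, rose (log2 fold change 0.37), while FBP1, an enzyme of gluconeogenesis (-0.25), and LDHD, a D-lactate dehydrogenase (-0.40), fell. The G6PC3, LDHD and FBP1 calls were lost without NC 1, NC 3, mimic 1 or mimic 3, and FBP1 also without mimic 2, with adjusted p up to 0.082, 0.15 and 0.12. The 11 genes of the pyruvate dehydrogenase complex and its regulators held 0 calls by limma, edgeR and DESeq2, with 2 higher and 3 lower at an unadjusted p under 0.05. Likewise the 10 genes of glycogen metabolism held 0 calls, with 2 higher and 1 lower at an unadjusted p under 0.05. Without NC 2, 3 of the former were called higher and 1 lower, and 0 of the latter. Of 7 pentose phosphate genes, TALDO1 rose (0.16), with adjusted p = 0.048 by limma and 0.056 by edgeR, a call lost without NC 1, NC 3, mimic 1 or mimic 3 (adjusted p up to 0.18). Without NC 2, 3 of the 7 were called higher and 0 lower.

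A list of 11 oxygen sensing genes and HIF partners held 1 call, a lower one. At an unadjusted p under 0.05, 3 of the 11 were higher and 1 lower. Without NC 2, 1 was called higher and 1 lower. CREBBP, a coactivator of HIF, fell from 2880, 2850 and 2810 to 2610, 2530 and 2560 (log2 fold change -0.15, limma adjusted p = 0.043), a call kept only without NC 2 (adjusted p up to 0.13 without the others). VHL was not called (-0.067, adjusted p = 0.49). Among 37 further HIF targets 1 was higher and 4 were lower, against 6.11% and 4.66% of all genes tested. Without NC 2, 1 was higher and 7 were lower, against 11% and 8.99%. STC2, a secreted glycoprotein, rose 1.43-fold from 379, 357 and 338 to 555, 473 and 511 (limma adjusted p = 0.0053). BHLHE41, a transcriptional repressor, fell from 2950, 2600 and 2790 to 2260, 2140 and 2020 (log2 fold change -0.38, limma adjusted p = 0.0050). TXNIP, which limits glucose uptake, fell from 18900, 15600 and 19700 to 13000, 15200 and 11800 (log2 fold change -0.44, limma adjusted p = 0.016). IGFBP3 (-0.21) and JMJD1C (-0.18) also fell. STC2 and BHLHE41 were called in all 6 fits that left out 1 library. TXNIP and JMJD1C were lost without NC 1, NC 3, mimic 1 or mimic 3, with adjusted p up to 0.083 and 0.11, and IGFBP3 without NC 3, mimic 1 or mimic 3, with adjusted p up to 0.19.

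Of the 12 calls 11 were lost without at least 1 library, mostly without NC 1, NC 3, mimic 1 or mimic 3, as the plot of calls with each library left out shows. Of the 12 called genes, 6 were called without NC 1, all 12 without NC 2, 1 without NC 3, 2 without mimic 1, 10 without mimic 2 and 3 without mimic 3. Each such fit has 1 library fewer. The direction of the 12 called genes held in all 6, but this was fixed in advance. Their groups did not overlap, so leaving out 1 library could not reverse it.

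**Figure D4:**
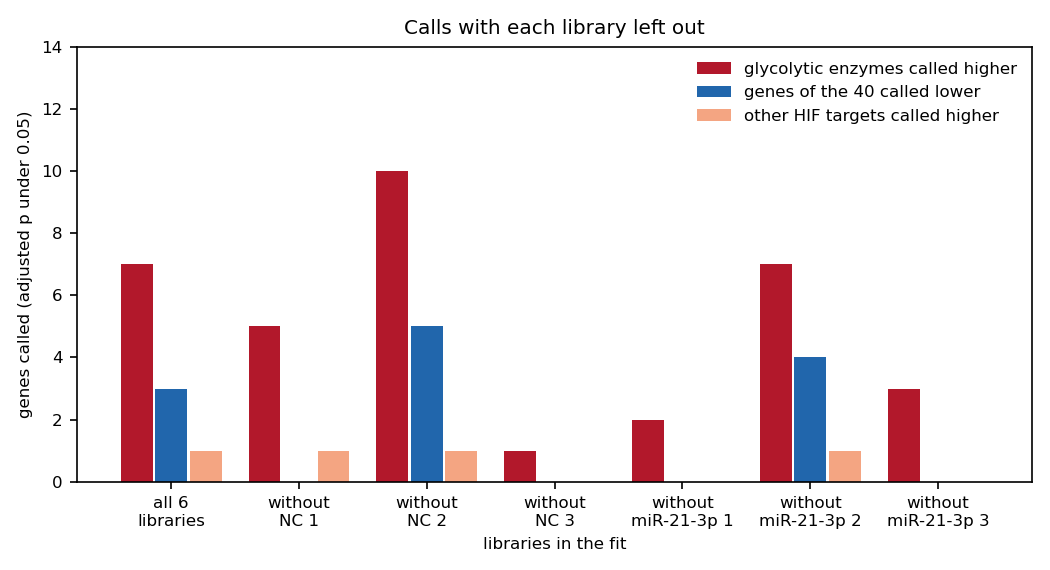
Number of genes called by limma with all 6 libraries and with each library left out in turn, for glycolytic enzymes called higher (red), genes of the 40 called lower (blue) and other HIF targets called higher (pale). The enzymes called higher go from 7 with all libraries to 10 without NC 2 and 1 without NC 3.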

How the data were processed

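RNA of 3 NC mimic and 3 miR-21-3p mimic HaCaT cultures was sequenced; the labels give polyA RNA and a stranded mRNA kit, the study's methods small RNA libraries, and the labels were followed. The submitters' processing notes name bcl2fastq 2.18.12, cutadapt 1.15, TopHat2 2.1.1, featureCounts (Subread 1.5.2) and DESeq2; the genome build is not given in the sources used here. The deposited signal is a read count per gene divided by a size factor by the authors, rounded to 3 digits. Low values gave back whole reads: of 16636 values up to 60 reads, 100% lay within 0.1 of a whole read. Higher values give reads only to 3 digits, so the library totals, 24400000 to 28000000 reads, are approximate. Biological replicates differed beyond counting noise.

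Groups were compared by limma 3.58.1 (R 4.3.3) on log2(value + 1) with a trended prior, for genes with a value of at least 10 in at least 3 libraries, with Benjamini-Hochberg adjustment over all genes tested; an adjusted p under 0.05 was a call. Log2 fold changes are on that scale. edgeR 4.0.16, DESeq2 1.42.0 and limma-voom were run on these recovered reads, approximate at high values, as alternatives. The fits were tested on simulated data. Levels per kilobase used GENCODE release 29 exon lengths, matched by Ensembl identifier for all 36 genes and 97.6% of genes tested.

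The genes and lists (7 companion lists, 5 marker lists) were chosen with earlier results of these data known. Named genes are every listed gene with a row; from each companion list those called, at most 6; and SLC2A1, SLC16A3 and VHL.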

Additional observations from a re-analysis of the deposited data

How the results depend on the processing

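The 12 called genes kept their direction under every alternative run. Their groups did not overlap, so a change of pseudocount or filter or leaving out libraries could not reverse it. The kept direction in those runs therefore adds no support. Pseudocounts of 0.5 and 5, no filter, a filter of at least 50 in 3 libraries, limma-voom, edgeR with TMM or DESeq2 size factors, and summing genes with pseudogenes named after them each called the same 12; upper quartile scaling lost HIF1A, and DESeq2 lost HIF1A and added PKM. CA9 passed the filter of at least 50 only through its mimic libraries (58.4 to 76.3, against 32.3 to 39.1 in NC). Its call under that filter therefore adds no support. The edgeR TMM, pseudogene and 2-library alternatives were chosen after seeing the data.

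Leaving out 1 library at a time gave 176 to 2957 calls over all genes, 1 to 12 of the 36 genes higher and 0 to 5 lower, 1 to 10 glycolytic enzymes higher, and 0 to 1 other HIF targets higher and 0 to 2 lower. Each such fit has fewer samples. Log2 fold changes that changed sign belonged to genes not called: HK1 (-0.043 to 0.013), PFKM (-0.021 to 0.0053), ALDOA (-0.0047 to 0.027), PFKFB4 (-0.13 to 0.021), VEGFA (-0.031 to 0.061) and BNIP3 (-0.061 to 0.39). The VEGFA log2 fold change was also -0.0050 with upper quartile scaling. Without both libraries numbered 2, those nearest the other group on the first component, there were 3376 calls (12.5% of genes tested higher, 10.4% lower). Of the 36 genes 12 were higher and 12 lower, with 10 glycolytic enzymes higher and 8 other HIF targets lower; leaving out these libraries widens the group difference by construction. That fit gave a PFKM log2 fold change of 0.0052 and a VEGFA log2 fold change of -0.0033. The cause was not tested.

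Same-numbered libraries did not deviate together (correlations across genes of -0.0023, -0.20 and -0.16), so the numbers were not taken as pairs. With a replicate block there were 1193 calls, and 9 of the 12 genes were called, without GPI (adjusted p = 0.075), HIF1A (0.091) and PFKFB3 (0.072). Of the companion genes called, LDHD (0.054), FBP1 (0.057), IGFBP3 (0.061), JMJD1C (0.065), TALDO1 (0.12) and CREBBP (0.12) were lost with the block. IGFBP3 and TALDO1 were also lost with no filter (0.055 each), TALDO1 by edgeR (0.056 to 0.067) and limma-voom (0.053), and CREBBP without both libraries numbered 2 (0.083). CA9, BNIP3, ANKRD37 and ANGPTL4, all under 100 normalized counts, have the widest intervals of the 36 genes at this depth.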
